A study of Mus musculus with 2 samples.

Results

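Basal interfollicular keratinocytes are the cells of the deepest layer of the epidermis, between the hair follicles. They were chosen here by their transcripts, from single-cell RNA profiles of mouse dorsal skin. A member held at least 1% of its unique molecular identifiers (UMIs, each a counted RNA molecule) in Krt5, Krt14 and Krt15, the keratins of the basal layer. It held under 0.5% in Krt1 and Krt10, the keratins of the layers above, and under 0.5% in the fibroblast transcripts Col1a1, Col1a2, Col3a1 and Dcn. It also had under 2 UMIs of the bulge and upper follicle genes Lgr5, Cd34, Lhx2, Krt24 and Krt79, under 3 of the sheath genes Sostdc1, Postn, Ptn, Megf6 and Fst, and under 3 of the cell cycle genes Mki67, Top2a, Cdk1 and Cenpf. These limits selected 2862 of the 17492 cells that passed quality limits, 1568 from the wildtype library and 1294 from the Eppk1 knockout library. The levels of these genes in the members follow from the selection and are given as a description.

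The wildtype library came from a C57BL/6J mouse and the knockout library from an Eppk1-/- mouse that had been backcrossed into C57BL/6J. Both mice were untreated, and a 6 mm punch of whole dorsal skin from each was dissociated with enzymes, fixed and profiled with probes for the mouse transcriptome. Neither age nor sex is given in the sources used here. With 1 library and 1 mouse for each genotype, genotype cannot be told apart from mouse, punch and library, and no difference below has a replicate check or a p-value.

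The basal layer holds the dividing cells that renew the epidermis. Its cells sit on the basement membrane through hemidesmosomes and integrins, keep their identity through the transcription factor p63, and switch from Krt5 and Krt14 to Krt1 and Krt10 when they leave. Epiplakin, the product of Eppk1, is a plakin, one of a family of large proteins that link keratin and other cytoskeletal filaments to junctions. Unlike other plakins it is built almost wholly of plakin repeat domains and binds keratin filaments, and it is known from the bundling of keratins in stressed epithelia.

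Each value below is the members' summed UMIs of a gene scaled to 1000000 UMIs of the members in the same library (CPM), and each log2 ratio sets knockout over wildtype with 0.5 UMI added on both sides. Intervals in parentheses after a level, a ratio or a share are exact 95% intervals, and they cover counting error only. The members held 6832829 wildtype and 5360040 knockout UMIs outside mitochondrial genes, with a median of 4262.5 and 4054.5 UMIs per cell. The deposited libraries held 9179 and 8811 cells, of which 8875 and 8617 passed. The libraries shared 1211 droplet barcodes, and 188 wildtype and 158 knockout members sat in such droplets.

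Members made up 17.7% of the wildtype cells (16.9 to 18.5) and 15% of the knockout cells (14.3 to 15.8). Fibroblasts, which count in the same denominator, numbered 1528 in wildtype and 2572 in knockout, and their part in the shares was not tested. The keratin limits cut through a continuous range of cells. In wildtype 64 members held 1 to 1.1% of their UMIs in the basal keratins and 53 cells with 0.9 to 1% fell just outside. In knockout these numbers were 33 and 39. Trp63, which the limits did not use, had a UMI in 93.8% and 84.8% of the members just inside and in 77.4% and 82.1% of the cells just outside, in wildtype and knockout in that order. At the limit on Krt1 and Krt10, 26 and 22 members lay just under it and 21 and 13 cells just over it.

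Trp63, the gene of p63 and the defining marker outside the selection, stood at 1157 CPM in wildtype and 1126 CPM in knockout members. With each cell thinned to 2000 UMIs, which left out 195 wildtype and 197 knockout members with fewer, 81.6% of wildtype and 85.8% of knockout members had a Trp63 UMI, against 2.5% and 1.2% of fibroblasts. In the thinned Krt1/Krt10 cells the share was 56.5% and 59.9%, so that Trp63 set the members apart from fibroblasts but did not by itself separate them from the next layers. Krt5 stood at 10392 and 11111 CPM, Krt14 at 10973 and 10623 CPM and Krt15 at 2848 and 3082 CPM. Krt17, a keratin of the follicle and of stressed epidermis, had a UMI in 65.6% and 64.5% of members, at 1242 and 1121 CPM, under the 1541 CPM in the wildtype cells that passed the basal keratin limit but failed a follicle limit. The limits thus left out cells with named follicle genes, and some cells with a follicle profile stayed in, as the cluster led by Sox9 below shows. Krt10 in members, at 418 and 449 CPM, was near its 449 and 402 CPM in fibroblasts, which do not make it, and far under the 26396 and 25801 CPM of the Krt1/Krt10 cells.

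**Figure D1:**
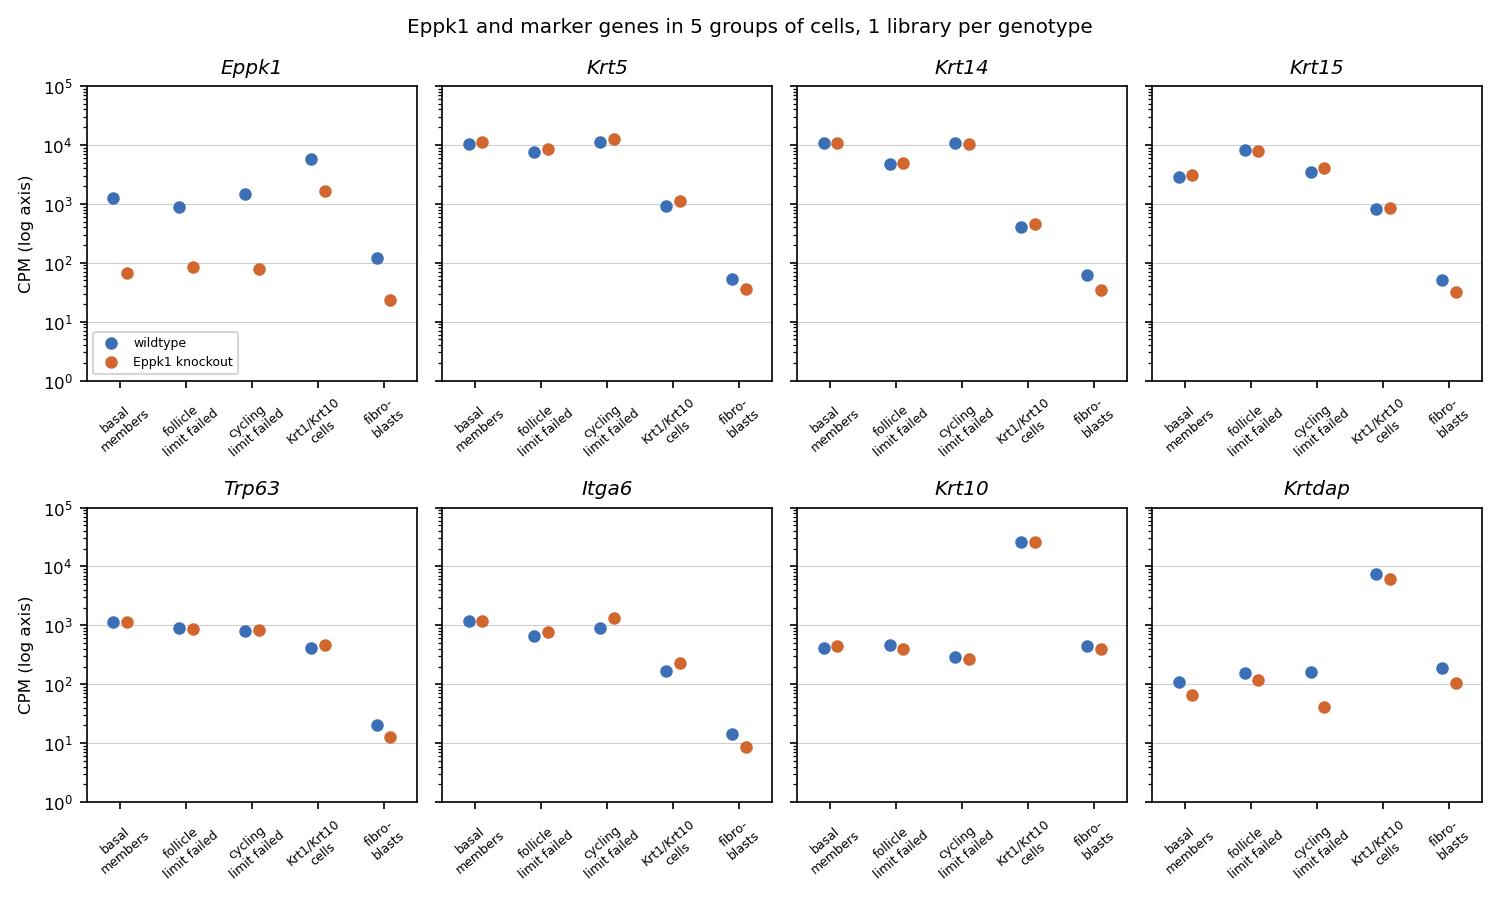
Level in CPM, on a log axis, of Eppk1, the basal markers, Itga6, Krt10 and Krtdap in the basal members, in cells with basal keratins that failed a follicle or the cycling limit, in Krt1/Krt10 cells and in fibroblasts, 1 point for each library. Eppk1 is the gene whose wildtype and knockout points lie farthest apart, with 1233 and 66.6 CPM in the members, while the Trp63 points of the members, at 1157 and 1126 CPM, lie together.

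Among cells of the wildtype library, the gene with the largest excess in members over the Krt1/Krt10 cells was Krt14, which the limits used. On the log2 scale, after 10 CPM was added to each level, members were higher by 4.74 for Krt14. The next 5 genes, ranked by the smaller difference of the 2 libraries, were Thbs1, a matrix glycoprotein, at 4.06, Itga3, an integrin that binds laminin, at 4.18, the metalloprotease Adam8 at 3.91, the Notch ligand Dll1 at 4.22 and Lamb3, a laminin chain, at 4.18. Among the 40 genes most below the Krt1/Krt10 cells, the difference was -6.65 for Krt77, -5.96 for Krtdap and -5.27 for Ivl, which are genes of differentiating layers. Against the cells that failed a follicle limit, members were higher by 2.22 for Igfbp3, which binds insulin-like growth factors, by 2.16 for the cytokine Tslp and by 1.89 for the EGF receptor ligand Epgn. It was -4.77 for Sox9, the transcription factor of the follicle's outer sheath, and -4.19 for Aqp3, a water and glycerol channel. These contrasts share cells of 1 library and partly follow from the limits.

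Eppk1 was the gene with the largest difference among the 2855 genes that had a UMI in at least 25% of the members of either library. Wildtype members held 8423 Eppk1 UMIs and knockout members 357, which is 1233 CPM against 66.6 CPM and a log2 ratio of -4.21 (-4.37 to -4.06). The difference ran through the whole distribution over cells. The median wildtype member had 3 Eppk1 UMIs, the highest had 48, and 41.6% had 5 or more. In knockout 1070 of 1294 members had none, the highest had 8 and 0.6% had 5 or more. After thinning, 77.5% of wildtype members (75.2 to 79.7) and 10.7% of knockout members (8.9 to 12.6) had a UMI, and in fibroblasts 11.7% and 3.6% did. The knockout share in members was above that in knockout fibroblasts. Which stretch of the Eppk1 transcript the remaining UMIs came from is unknown, because the deposited counts sum over a gene's probes.

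The remaining Eppk1 signal was larger one layer up. In the Krt1/Krt10 cells Eppk1 stood at 5794 CPM in wildtype and 1628 CPM in knockout, a log2 ratio of -1.83, and 41.2% of thinned knockout cells had a UMI against 91.0% in wildtype. In the cells that failed a follicle limit the ratio was -3.37, and in fibroblasts, at 119 and 23.4 CPM, it was -2.34. Within the members Eppk1 was lower in the knockout in all 9 clusters described below. The ratio was largest in cluster 1 at -4.84, where 1644 CPM stood against 57.1 CPM, and smallest in cluster 8 at -3.05, where 546 CPM stood against 61.9 CPM. Over the clusters wildtype Eppk1 ran from 546 to 1644 CPM and knockout Eppk1 from 50.6 to 136.6 CPM, so the ranges did not meet.

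The other 6 plakins stood close to their wildtype level, and none was past 0.5 on the log2 scale. Dst, whose epithelial form BPAG1e anchors keratin at hemidesmosomes, was at 1435 CPM in wildtype and 1196 CPM in knockout, with a log2 ratio of -0.26 (-0.31 to -0.22). Plec, which encodes plectin, its partner at hemidesmosomes, was higher, at 1339 and 1531 CPM with a ratio of 0.19 (0.15 to 0.24). Desmoplakin, encoded by Dsp, links keratin to desmosomes and was at 3107 and 3404 CPM, a ratio of 0.13. The ratios of Macf1, Evpl and Ppl were 0.17, 0.03 and -0.04, and those of Evpl and Ppl had intervals that held 0. Dst and Plec, which serve the same structure, thus lay on opposite sides of 0.

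Genes of the hemidesmosome and basement membrane summed to 9689.5 CPM in wildtype and 9811.5 CPM in knockout members, nearly the same level. Of 14 with at least 50 UMIs, 10 were higher and 4 lower, 5 with an interval above 0 and 1 with an interval below it, with a median of 0.16 beside -0.002 over all 8827 genes with at least 50 UMIs. Col17a1, the collagen that spans the basal membrane, was at 4278 and 4307 CPM with a ratio of 0.01 (-0.02 to 0.04). Its integrin partners split. Itga6 was at 1198 and 1180 CPM, with a ratio of -0.02, while Itgb4 was at 327 and 404 CPM with a ratio of 0.30 (0.22 to 0.39). Lama3 and Lamb3, which encode chains of a laminin of the epidermal basement membrane, were near 0, at -0.07 and 0.10. The extremes of the list were Nid1 at 1.15, on 21 and 37 UMIs, and Lamb1 at -0.59, on 37 and 19 UMIs. Both are strong in fibroblasts, where Nid1 stood at 1064 and 1800 CPM, and the summed level of the fibroblast markers in members was also higher in knockout, at 199 and 248 CPM, with all 5 markers higher. Their part in the Nid1 ratio was not tested.

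Integrins and their cytoplasmic partners did not stand apart from other genes. Of 20 measured, 9 were higher, 11 lower and none past 0.5, and the median was -0.01. Itgb1, the common beta chain of basal cells, was at 637 and 575 CPM, a ratio of -0.15 (-0.22 to -0.08), and Itga3 at 534 and 494 CPM, a ratio of -0.11. The extremes were Fermt1 at -0.42, which encodes kindlin-1, and Bcar1 at 0.18, a docking protein of focal adhesions.

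Of 15 genes of cadherin junctions 7 were higher and 8 lower, with a median of -0.01 and 1 past -0.5. E-cadherin, encoded by Cdh1, was at 2464 and 2528 CPM, a ratio of 0.04, and the desmosomal cadherin Dsg3 was at 518 and 503 CPM, a ratio of -0.04. Jup, the plakoglobin of both kinds of junction, had a ratio of -0.01, and Perp, a desmosomal membrane protein, was at 4859 and 4303 CPM, a ratio of -0.18. The extremes were Nectin4 at -0.60, at 26.3 and 17.4 CPM, and Dsg2 at 0.25, at 184 and 218 CPM. Genes of actin and its linkers included 9 higher and 4 lower of 13, with a median of 0.05. Filamin A, encoded by Flna, was the highest of these, at 423 and 536 CPM with a ratio of 0.34 (0.27 to 0.42), and Actg1 the lowest at -0.14.

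Among the 2855 detected genes, 14 were higher by 0.5 or more on the log2 scale in knockout members, which is 0.490% of them, and 28 including Eppk1 were lower by 0.5 or more, which is 0.981%. Over the 8827 genes with at least 50 UMIs, these shares were 3.94% and 5.10%. A difference past 0.5 was therefore rare among well detected genes, and most genes past it were weakly expressed. The limit of 25% could be met in 1 library alone, so some genes entered only through the library where they were higher. Arhgap8 had a UMI in 13.5% of wildtype and 28.3% of knockout members, and Efna3 in 25.1% and 7.96%. The counts hold for a set chosen in this way. Of the 42 genes, 41 kept their sign in 13 other ways of computing the ratio, and 25 stayed past 0.5 in all of them. The exception in sign was Lor. The genes were picked by their ratio in these same libraries, so these counts show only dependence on processing. They are no check of the calls.

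Efna3, an ephrin that binds Eph receptors on neighboring cells, was the lowest after Eppk1. It stood at 79.5 CPM in wildtype and 22.2 CPM in knockout members, a log2 ratio of -1.84 (-2.14 to -1.55). It was lower in knockout also in the Krt1/Krt10 cells, at 295 and 150 CPM, and in the cells that failed a follicle limit, at 166 and 109 CPM. Next came 3 enzymes of sterol synthesis, Sqle, Cyp51 and Msmo1, described below. Hes1, the transcriptional repressor that Notch signaling switches on, was at 164 and 85.8 CPM, a ratio of -0.94 (-1.10 to -0.78). Zbtb16, a zinc finger repressor that glucocorticoids induce, was at 207 and 109 CPM, a ratio of -0.93 (-1.07 to -0.79). Egln3, an oxygen-sensing prolyl hydroxylase that is itself induced by low oxygen, was at 380 and 205 CPM, a ratio of -0.89 (-0.99 to -0.79). These transcription and signaling genes were lower in the knockout library in the Krt1/Krt10 cells as well. The ratios there were -0.94 for Hes1, -0.49 for Zbtb16 and -0.91 for Egln3. Cluster 1 of the members, described below, held 1684 of the 2595 wildtype Egln3 UMIs. With clusters weighted by their wildtype shares, the members' Egln3 ratio was -0.63.

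The differentiation genes Lor and Krtdap were also among the lowest 10. Lor, which encodes loricrin of the cornified envelope, was at 116 and 67.0 CPM, a ratio of -0.79 (-0.97 to -0.61), and Krtdap, a secreted protein of differentiating keratinocytes, was at 110 and 64.7 CPM, a ratio of -0.76 (-0.95 to -0.58). Krtdap in both libraries and Lor in wildtype stood below their fibroblast levels, 190 and 107 CPM for Krtdap and 186 CPM for Lor. Knockout Lor, at 67.0 CPM in members, stood above the 52.0 CPM of knockout fibroblasts. Fibroblasts do not make either protein, so levels of this size are not read as expression in the members. Where the UMIs came from was not tested. A single wildtype member held 134 Lor UMIs, and without the highest Lor count of a cell in each library the Lor ratio was -0.54. With the looser choice of members it was 0.20.

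Other lower genes were abundant and were detected in most members. Zfp36l2, which promotes the decay of AU-rich mRNAs, was at 2045 and 1263 CPM, a ratio of -0.70 (-0.74 to -0.65). Fgfbp1, a secreted carrier of fibroblast growth factors, was at 929 and 573 CPM, a ratio of -0.70 (-0.76 to -0.64). Dll1 was at 588 and 376 CPM, a ratio of -0.65 (-0.72 to -0.57). The metal-binding protein gene Mt1 was at 2869 and 1961 CPM, a ratio of -0.55, and the AP-1 subunit gene Junb at 1810 and 1265 CPM, a ratio of -0.52. Their ratios were closer to 0 in the Krt1/Krt10 cells, at -0.15 for Zfp36l2, -0.23 for Fgfbp1, -0.11 for Mt1 and -0.31 for Junb, and whether these differed from the members' ratios was not tested. The remaining lower genes lay between -0.73 and -0.50. They included Socs3, an inhibitor of cytokine signaling, at -0.73, Glul, glutamine synthetase, at -0.72, and Avpi1 at -0.71. Txnip, an inhibitor of thioredoxin, was at -0.61 and Pfkfb3, a regulator of glycolysis, at -0.57. With the clusters described below weighted by their wildtype shares, the Pfkfb3 ratio was -0.37.

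Of the 14 higher genes, Arhgap8, a GTPase-activating protein, had the largest ratio. It stood at 38.1 CPM in wildtype and 95.9 CPM in knockout members, a log2 ratio of 1.33 (1.12 to 1.55). Phldb1, which encodes LL5-alpha, a protein of the basal cortex, followed at 89.3 and 150 CPM, a ratio of 0.75 (0.60 to 0.91), and Poldip3 at 151 and 254 CPM, a ratio of 0.75 (0.63 to 0.87). Ly6d, a GPI-anchored surface protein of keratinocytes, was by far the most abundant of them. It was at 2873 and 4690 CPM, a ratio of 0.71 (0.68 to 0.73), and it was higher in knockout in all 9 clusters, by 0.05 in cluster 6 to 1.26 in cluster 5. The others in the highest 10 were Plekha3 at 0.67, Calm5, a calmodulin-like protein of epidermis, at 0.62, Frmd4a at 0.59, the protease gene Adamts1 at 0.58, Atrnl1 at 0.57 and Socs7 at 0.55. Below them lay Lasp1 and Il1r2 at 0.52, Egr3 at 0.51 and Slco4a1 at 0.50. Il1r2, the decoy receptor for interleukin-1, was at 155 and 223 CPM in members, and at 47.7 and 33.3 CPM in the Krt1/Krt10 cells. Phldb1, at 404 and 371 CPM, and Il1r2, at 532 and 408 CPM, stood above the members' levels in fibroblasts, and the part of the fibroblast transcripts given above in these ratios was not tested.

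Arhgap8, Poldip3 and Ly6d lie on chromosome 15 near Eppk1. In the GRCm38 annotation Eppk1 spans 76101481 to 76120195 on chromosome 15, Ly6d 74762056 to 74763620, Poldip3 83125976 to 83149384 and Arhgap8 84720052 to 84772207. Thus 3 of the 14 higher genes and 1 of the 27 lower genes other than Eppk1, Srebf2, lay within 10 Mb of Eppk1, as did 45 of the 2855 detected genes, which is 1.58%. A backcrossed allele can carry flanking sequence of the donor strain, and whether it does here was not tested. Arhgap8 and Poldip3 were higher in knockout also in the Krt1/Krt10 cells, by 1.91 and 0.56, and in the cells that failed a follicle limit, by 0.41 and 0.43.

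**Figure D2:**
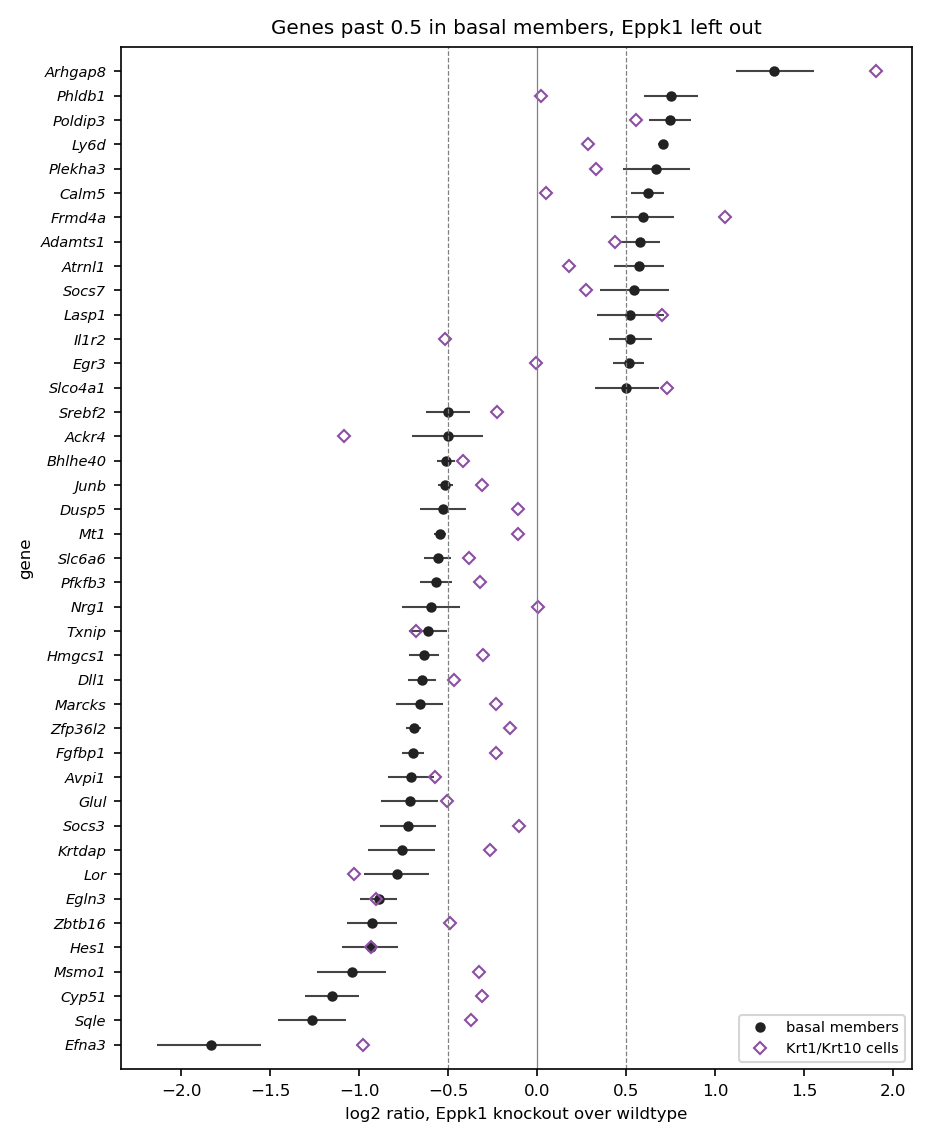
Log2 ratio of knockout over wildtype, with its exact 95% counting interval, of the 14 higher and 27 lower genes in members (filled points), Eppk1 left out, with the ratio in Krt1/Krt10 cells (open diamonds) and dashed lines at 0.5 either way. The members run from -1.84 for Efna3 to 1.33 for Arhgap8, and most diamonds lie nearer to 0.

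The called genes were followed into other cells of the same mice. Of the 14 genes higher in knockout members, 12 were higher in the Krt1/Krt10 cells, 10 in the cells that failed a follicle limit and 8 in fibroblasts, with medians of 0.31, 0.19 and 0.06. Over all 2855 detected genes the share that was higher there was 73.1%, 56.8% and 43.2%, so the counts of the higher genes stood little above it, and none of them was past 0.5 in the cells that failed a follicle limit. Of the 27 genes other than Eppk1 that were lower, 26, 24 and 23 were lower in those cells, beside 26.9%, 43.2% and 56.8% of all detected genes. Their medians there were -0.33, -0.39 and -0.43. All these ratios compare the same pair of libraries, so they share whatever separates them.

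Genes of cholesterol synthesis were lower in knockout members as a group, with the median farthest from 0 among the 22 lists. The pathway turns acetyl-CoA into sterols in a chain of enzymes, and in epidermis its products enter the lipids of the skin barrier. Its genes are switched on together by SREBP-2, the product of Srebf2, when sterols in the cell run low. Of the 18 of 20 genes with at least 50 UMIs, 16 were lower and 2 higher, 11 were past -0.5, and the median log2 ratio was -0.54. Over all 8827 genes 4449 were lower, 5.10% were past -0.5 and the median was -0.002. In 13 other ways of computing the ratio the list's median ranged from -0.70 to -0.47. The summed level was 1682 CPM in wildtype and 1038 CPM in knockout members, a ratio of -0.70 (-0.74 to -0.65).

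The lower ratios ran along the chain. At its start Hmgcs1, which makes HMG-CoA, was at 504 and 324 CPM, a ratio of -0.64 (-0.72 to -0.55). In the isoprenoid steps Idi1 was at 35.3 and 13.3 CPM, a ratio of -1.41, and Fdps at 125 and 91.6 CPM, a ratio of -0.45. At the entry to sterols Fdft1, squalene synthase, had a ratio of -0.43, and Sqle, squalene epoxidase, was at 135 and 56.2 CPM, a ratio of -1.26 (-1.46 to -1.08). Lss, which closes the sterol rings, was at 6.59 and 1.87 CPM, a ratio of -1.77 (-2.97 to -0.81), on 45 and 10 UMIs.

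After ring closure Cyp51 was at 197 and 88.4 CPM, a ratio of -1.15 (-1.31 to -1.0), and Msmo1 at 116 and 56.5 CPM, a ratio of -1.04 (-1.24 to -0.85). Hsd17b7 and Sc5d had ratios of -0.81 and -0.55. The ratios of Ebp, at -0.24 (-0.62 to 0.13), and Dhcr7, at -0.05 (-0.32 to 0.22), were nearer to 0. The 2 genes on the other side of 0, Mvk at 0.30 and Nsdhl at 0.01, had 31 and 30 UMIs and 57 and 45 UMIs, and their intervals held 0. Outside the chain of enzymes, Insig1, which holds SREBP in the endoplasmic reticulum, was at 46.1 and 24.1 CPM, a ratio of -0.93. Srebf2 was at 219 and 155 CPM, a ratio of -0.50 (-0.63 to -0.38). Mvd and Tm7sf2 had under 50 UMIs.

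**Figure D3:**
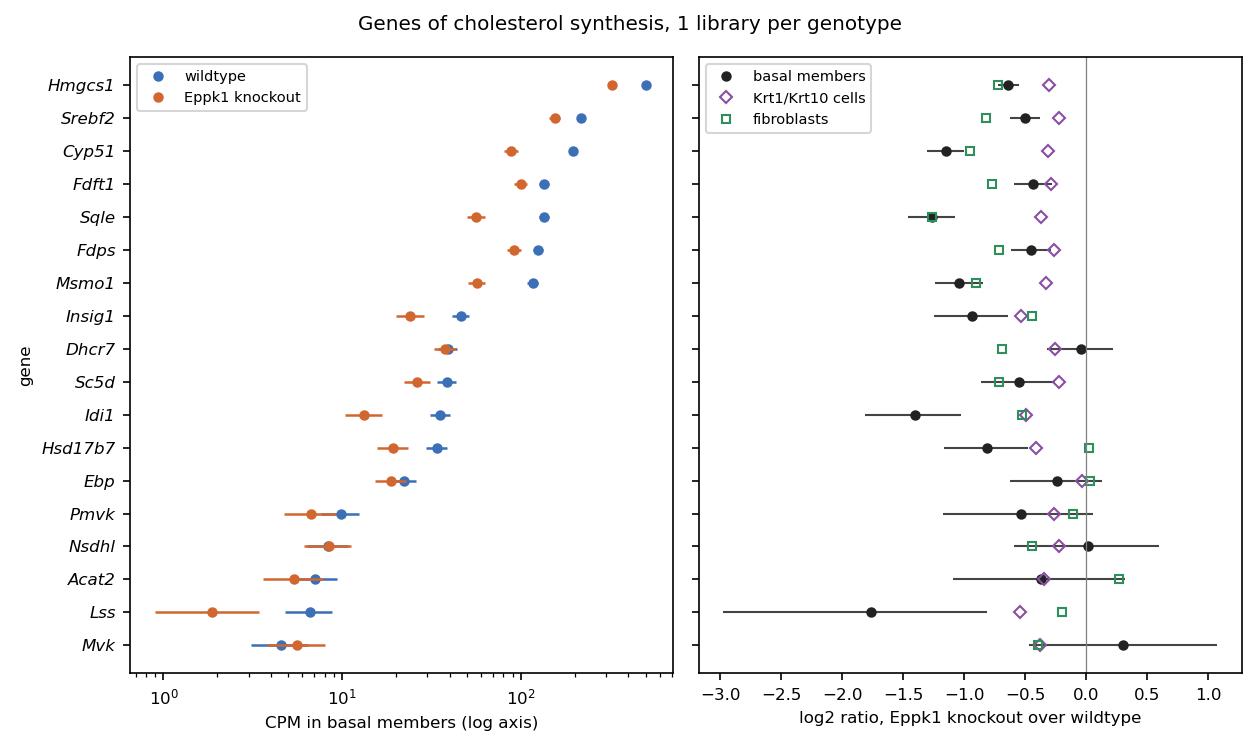
Cholesterol synthesis genes with at least 50 UMIs, ordered by wildtype level: CPM in members on a log axis (left) and log2 ratio of knockout over wildtype (right) in members (filled, with exact 95% counting intervals in both panels), Krt1/Krt10 cells (diamonds) and fibroblasts (squares). The members' ratios lie left of 0 for 16 of 18 genes, from -1.77 for Lss to 0.30 for Mvk.

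The same list was lower in knockout in every other class of cell compared. Its summed level was 4934 and 3994 CPM in the Krt1/Krt10 cells, a ratio of -0.31, and 1389 and 1084 CPM in the cells that failed a follicle limit, a ratio of -0.36. In fibroblasts it was 845 and 549 CPM, a ratio of -0.62. The members' ratio of -0.70 lay nearest to that of the fibroblasts, and the difference between cell classes was not tested. Within the members the summed level was lower in all 9 clusters, from -0.16 in cluster 2 to -1.30 in cluster 5, where it stood at 3388 CPM in wildtype and 1375 CPM in knockout. Only in cluster 9, the smallest, did the interval hold 0.

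The stretches upstream of these genes share a short motif. Many sterol genes are known to need NF-Y, which binds the letters CCAAT, beside the sterol regulatory element that SREBP binds. In the RefSeq promoter table (GRCm38.p6) 17 of the 20 genes had an entry. Of these, 16 held CCAAT on either strand within the 250 bases before at least 1 of their transcription starts, which is 94.1%. The exception was Acat2. The share was 37.49% over all 27025 genes with an entry, whether or not they were detected in these cells. TCACNCCAC, a core of the sterol regulatory element, was held on either strand by 1 of the 17, Hmgcs1, and by 1.22% of all genes. The 150 bases before the start are given for Hmgcs1, Sc5d and Ebp, which were lower in knockout to different extents, and for Mvk, which was not, in capitals for both motifs on either strand. They lie at chr13:119690201-119690350 on the plus strand for Hmgcs1, chr9:42264301-42264450 on the minus strand for Sc5d, chrX:8193513-8193662 on the minus strand for Ebp and chr5:114444119-114444268 on the plus strand for Mvk.
Hmgcs1: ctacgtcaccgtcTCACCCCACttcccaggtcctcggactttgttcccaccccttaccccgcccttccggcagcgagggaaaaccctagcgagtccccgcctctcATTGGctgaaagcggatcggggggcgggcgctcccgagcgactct
Sc5d: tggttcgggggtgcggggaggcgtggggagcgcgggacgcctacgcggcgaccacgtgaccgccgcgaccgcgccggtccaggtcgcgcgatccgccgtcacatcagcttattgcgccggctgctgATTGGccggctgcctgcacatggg
Ebp: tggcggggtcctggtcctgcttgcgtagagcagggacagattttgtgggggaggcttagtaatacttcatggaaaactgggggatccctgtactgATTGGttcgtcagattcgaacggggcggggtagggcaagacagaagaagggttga
Mvk: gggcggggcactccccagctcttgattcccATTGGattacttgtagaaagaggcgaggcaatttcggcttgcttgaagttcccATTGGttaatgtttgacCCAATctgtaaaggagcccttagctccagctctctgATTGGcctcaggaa

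CCAAT or its reverse began 45 bases before the start of Hmgcs1, 24 before that of Sc5d and 55 before that of Ebp, and Mvk had 4 within the stretch. Hmgcs1, at -0.64, carried both motifs, and Mvk was at 0.30 on 31 and 30 UMIs, with an interval that held 0. With the box found for 16 of 17 genes, its presence cannot be compared with the ratios. A match of letters is a description and not a bound site.

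Ligands and receptors of the Notch pathway, by which basal cells and their neighbors set the pace of differentiation, were split. Of 18 measured genes 6 were higher and 12 lower, 2 were past -0.5, and the median was -0.11. The ligand Dll1 was lower at -0.65 and its relative Jag1 was at 289 and 241 CPM, a ratio of -0.26 (-0.37 to -0.16), whereas Jag2 was at 221 and 240 CPM, a ratio of 0.12. The receptor Notch1 was higher, at 446 and 540 CPM with a ratio of 0.28 (0.20 to 0.35). The target Hes1, at -0.94, was the lowest of the list and the coactivator gene Maml2, at 0.33 on 71 and 70 UMIs, the highest. Hes1 was not spread evenly: 393 of its 1123 wildtype UMIs lay in the 118 wildtype cells of cluster 6, where it stood at 1162 and 530 CPM. Without clusters 6, 8 and 9 the Hes1 ratio was -0.74. In fibroblasts Hes1 was higher in knockout, at 380 and 511 CPM.

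Of 13 ephrins and Eph receptors, which signal between touching cells, 8 were higher and 5 lower, with a median of 0.08. The ligand Efna3 stood alone at -1.84, while Efna2 was the highest at 0.84, on 24 and 34 UMIs, and Efna1, a more abundant ligand, was at 107 and 113 CPM, a ratio of 0.08. Of the receptors, Epha2 was at 1188 and 1221 CPM, a ratio of 0.04, and the much weaker Epha1 was lower, at 35.7 and 25.4 CPM, a ratio of -0.49 (-0.81 to -0.19).

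Wnt ligands and receptors leaned higher. Of 19 genes 13 were higher and 6 lower, 4 were past 0.5 and none past -0.5, with a median of 0.11. Over all 8827 genes with at least 50 UMIs, 4378 were higher, 3.94% were past 0.5 and the median was -0.002. Among ligands, Wnt10b was at 29.3 and 43.5 CPM, a ratio of 0.57 (0.29 to 0.85), Wnt7b at 314 and 389 CPM, a ratio of 0.31 (0.22 to 0.40), and Wnt3 at 214 and 246 CPM, a ratio of 0.20. Among receptors Fzd6 was at 91.2 and 116 CPM, a ratio of 0.35 (0.19 to 0.52), and Fzd1, the lowest of the list, at -0.37, on 63 and 38 UMIs. The highest was Tcf7l1, a repressor of Wnt targets, at 0.67, on 28 and 35 UMIs. The Tcf7l1 ratio was 0.24 by the mean over cells of CPM. Wnt10b in fibroblasts, at 29.2 and 56.3 CPM, was no lower than in members, and its part in the members' ratio was not tested. Axin2, the usual readout of Wnt signaling, was at 31.2 and 27.4 CPM, a ratio of -0.18 whose interval of -0.50 to 0.13 held 0.

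Ligands of the EGF receptor, which drive growth of basal cells, went different ways. Epgn was at 3815 and 4535 CPM, a ratio of 0.25 (0.22 to 0.27), Tgfa at 105 and 74.8 CPM, a ratio of -0.49 (-0.67 to -0.31), and Egfr itself at 348 and 341 CPM, a ratio of -0.03. The extremes were Areg at 0.66, from 10.4 to 16.4 CPM, and Ereg at -1.12, from 10.7 to 4.85 CPM. In the Krt1/Krt10 cells Ereg stood at 759 and 481 CPM. Its ratio in members was -0.37 after thinning, and that of Areg was 0.16 under the looser choice of members. Where these UMIs came from was not tested. Of the 14 genes 6 were higher and 8 lower, with a median of -0.03. The summed level went the other way, from 5836 to 6440 CPM, with Epgn holding most of it.

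Transcription factors of the basal layer stayed near their wildtype level, with 5 of 15 higher, 10 lower and a median of -0.05. Myc was at 864 and 765 CPM, a ratio of -0.18, and Hopx at 158 and 127 CPM, a ratio of -0.32 (-0.46 to -0.18). The extremes were Barx2 at 0.57 and Id1 at -0.46. Of 15 genes of DNA replication and growth arrest 10 were higher, with a median of 0.18, although the summed level was 2999 and 2937 CPM. Pcna, the clamp of DNA polymerase, was at 420 and 460 CPM, a ratio of 0.13, and Ccnd2, a G1 cyclin, at 775 and 698 CPM, a ratio of -0.15. The extremes were Mcm5 at 0.70, on 25 and 32 UMIs, and Tyms at -0.69, on 50 and 24 UMIs, and cells with several UMIs of cycling genes had been left out by the selection.

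Genes of early differentiation leaned lower by count and higher by sum. Of 15, 5 were higher and 10 lower, 1 was past 0.5 and 2 past -0.5, and the median was -0.14. The summed level was 13939 and 15604 CPM. Ly6d, the most abundant gene to differ, went from 2873 to 4690 CPM, more than the sum rose. Without Ly6d the list thus summed lower in knockout. The list's sum in fibroblasts was 2995 and 2406 CPM, a ratio of -0.32, and its part in the members' ratios was not tested. Ovol1 and Grhl3 are transcription factors that drive differentiation. Ovol1 was at 763 and 596 CPM, a ratio of -0.36 (-0.42 to -0.29), and Grhl3 at 195 and 146 CPM, a ratio of -0.42 (-0.54 to -0.29). Grhl3 was concentrated in cluster 7, described below, at 1030 CPM against 107 CPM in the other members. Its ratio was -0.20 under the stricter choice of members. Ly6d, at 0.71, was the highest and Krtdap, at -0.76, the lowest, though the level of Krtdap is not read as expression in the members. Of 11 stress and follicle keratinocyte genes, the 7 with at least 50 UMIs were below 0, with a median of -0.33. Over all 8827 genes with at least 50 UMIs, 4449 were lower. Within the clusters described below, the sum of the 7 was higher in knockout in clusters 5, 6 and 9, by 0.26, 0.22 and 0.25. It was lower in the other clusters. In fibroblasts the sum was 716 and 296 CPM, a ratio of -1.28, and its part in the members' ratios was not tested. Krt16, a keratin of stressed epidermis, was at 3128 and 2473 CPM, a ratio of -0.34 (-0.37 to -0.31), Krt17 had a ratio of -0.15 and Krt80, the nearest to 0, of -0.04, which was 0.15 with clusters weighted by their wildtype shares. Sprr1b had the lowest, -1.49, in 3.19% and 2.40% of members, and it was -0.04 under the looser choice of members.

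Genes that glucocorticoids induce were mixed, with 5 higher and 10 lower of 15 and a median of -0.08. Fkbp5, the best known of them, was at 42.9 and 15.5 CPM, a ratio of -1.46 (-1.84 to -1.11), and Tsc22d3 at 65.3 and 49.6 CPM, a ratio of -0.39, while Angptl4 was at 47.4 and 74.4 CPM, a ratio of 0.65 that was 0.21 under the looser choice. The receptor Nr3c1 was at 91.0 and 95.2 CPM, a ratio of 0.06. Fkbp5 was lower also in the Krt1/Krt10 cells, at 58.1 and 15.9 CPM. Of 16 clock genes 10 were lower, with a median of -0.16. Tef and Dbp, output factors of the clock, were at -0.64 and -0.59, and their fellow Nr1d1 was at 505 and 357 CPM, a ratio of -0.50 (-0.58 to -0.42). Arntl, which peaks at the opposite phase, and its partner Clock were at 0.16 and 0.17, the latter the highest of the list. The hour at which each mouse was killed is not given in the sources used here, so its part in the clock and glucocorticoid genes was not tested.

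Immediate early and heat shock genes, which dissociation of tissue is known to switch on, were lower for 15 of 18, with a median of -0.14. Fos was the highest at 0.21, from 1558 to 1797 CPM, and Socs3 the lowest at -0.73. Metallothioneins and oxidative stress genes had 3 of 12 higher and a median of -0.13, from Nqo1 at -1.05 to Hmox1 at 0.11, and Mt2, the most abundant, was at 6893 and 5851 CPM, a ratio of -0.24. Targets of YAP and TEAD had 6 of 16 higher and a median of -0.05, with Ccn1 at 661 and 522 CPM, a ratio of -0.34, Amotl2 the lowest at -0.83 and Crim1 the highest at 0.21. The list around Txnip had 4 of 13 higher and a median of -0.08, from Pik3ip1 at -0.67 to Ccng2 at 0.25. Txnip itself had 1130 of its 2069 wildtype UMIs in cluster 6, and its ratio without clusters 6, 8 and 9 was -0.26.

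Secreted signals and their receptors divided evenly, 8 higher and 7 lower, with a median of 0.05. Cxcl14, a chemokine made by resting epidermis, was at 1055 and 1285 CPM, a ratio of 0.28 (0.24 to 0.33), and Tslp at 231 and 282 CPM, a ratio of 0.29. The antimicrobial peptide gene Defb1 was the lowest, at 36.6 and 14.0 CPM, a ratio of -1.38 (-1.78 to -1.01). Il34, which maintains Langerhans cells, was at 39.7 and 28.0 CPM, a ratio of -0.50 (-0.80 to -0.21). Pthlh had the highest ratio, 2.31 on 12 and 48 UMIs, and without the highest Pthlh count of a cell in each library it was -0.28. Of 20 interferon and antigen presentation genes 7 were higher and 13 lower, 2 were past 0.5 and 6 past -0.5, with a median of -0.10. Among all 8827 genes with at least 50 UMIs, 3.94% were past 0.5 and 5.10% past -0.5. Gbp2, a GTPase that interferon gamma induces, was at 85.8 and 23.7 CPM, a ratio of -1.85, which was -0.77 without clusters 6, 8 and 9, and Rsad2 was at 1.90 and 18.8 CPM, a ratio of 3.26, in 0.57% and 0.93% of members. B2m, present in most members, was at 885 and 724 CPM, a ratio of -0.29 (-0.35 to -0.23).

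**Figure D4:**
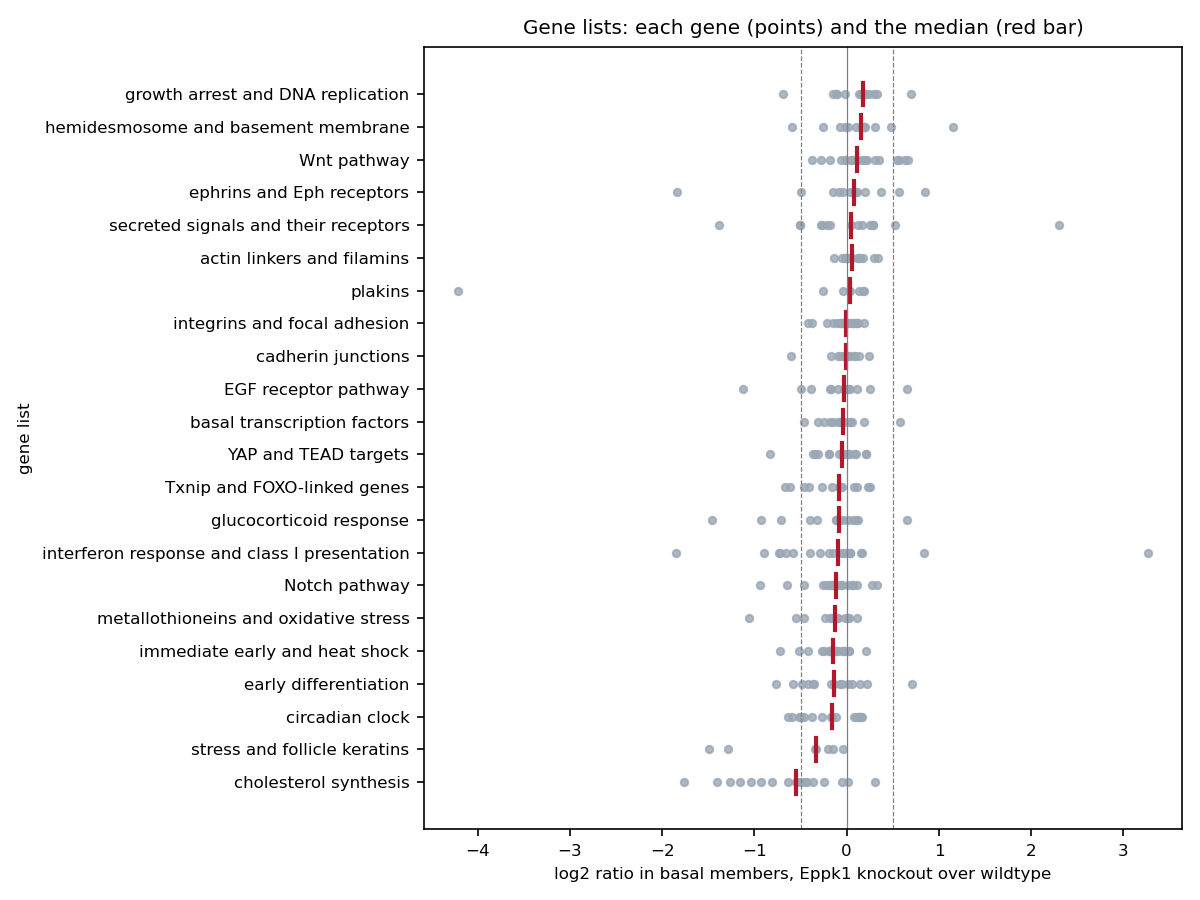
Log2 ratio of knockout over wildtype in members for each gene with at least 50 UMIs of the 22 lists, 1 point for each gene with a red bar at each list's median and dashed lines at 0.5 either way. Cholesterol synthesis has the lowest median, -0.54, and the other medians lie between -0.33 and 0.18.

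The members were not uniform, and clustering on their own transcripts gave 9 clusters, which stay numbered. Cluster 1, with 462 wildtype and 295 knockout cells, was led by Tnfsf18, Egln3, Slc16a3, Pfkfb3 and Slc2a1, several of which are known targets of the low-oxygen response. Cluster 2, with 293 and 354 cells, was led by Tslp, Cldn4 and Mdm2, and cluster 3, with 244 and 236, by Bbc3, Fosb and Hexim1. Cluster 4, with 116 and 179 cells, was the shallowest, with a median of 1843 and 1813 UMIs per cell. Cluster 5, with 181 and 74 cells, was led by Ccn1, Snai2 and Nr4a1 and also by Zbtb16, Msmo1 and Cyp51. Since these last genes differ between the libraries, the sizes of the clusters were not compared.

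Cluster 6, with 118 and 80 cells, was led by Sox9, Txnip, Aqp3 and Id1 and had the highest Krt15, 8471 CPM in wildtype and 6082 CPM in knockout, which are genes of the follicle and its stem cells as much as of the epidermis between follicles. Cluster 7, with 111 and 56 cells, was led by Zfp750, Grhl3 and Krt1, genes of commitment to differentiation. Cluster 8, with 18 and 14 cells, was led by Cd74, H2-Ab1 and C1qa, genes of immune cells, at a median of 7742 and 7690.5 UMIs per cell. Cluster 9, with 25 and 6 cells, was led by Cxcl9, Cxcl10 and Gbp2, targets of interferon gamma. Krt14 stayed between 6424 and 14110 CPM in wildtype and 6495 and 14400 CPM in knockout over the 9 clusters, and Trp63 between 780 and 1542 CPM in wildtype.

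Among named differences, Zfp36l2 was lower in knockout in all 9 clusters, from -0.19 in cluster 6 to -1.42 in cluster 9. Dll1 was lower in all 9 as well, from 960 to 549 CPM in cluster 1, where it was highest, and from 304 to 297 CPM in cluster 6. Fgfbp1 was lower in 8 and higher in cluster 6, at 399 and 486 CPM. Arhgap8 was higher in 8 and lower in cluster 8, where it had 11 UMIs. Cyp51 was lower in all 9, most clearly in cluster 5 at 477 and 122 CPM. The large clusters and the small ones thus mostly shared the direction of the summed ratios.

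**Figure D5:**
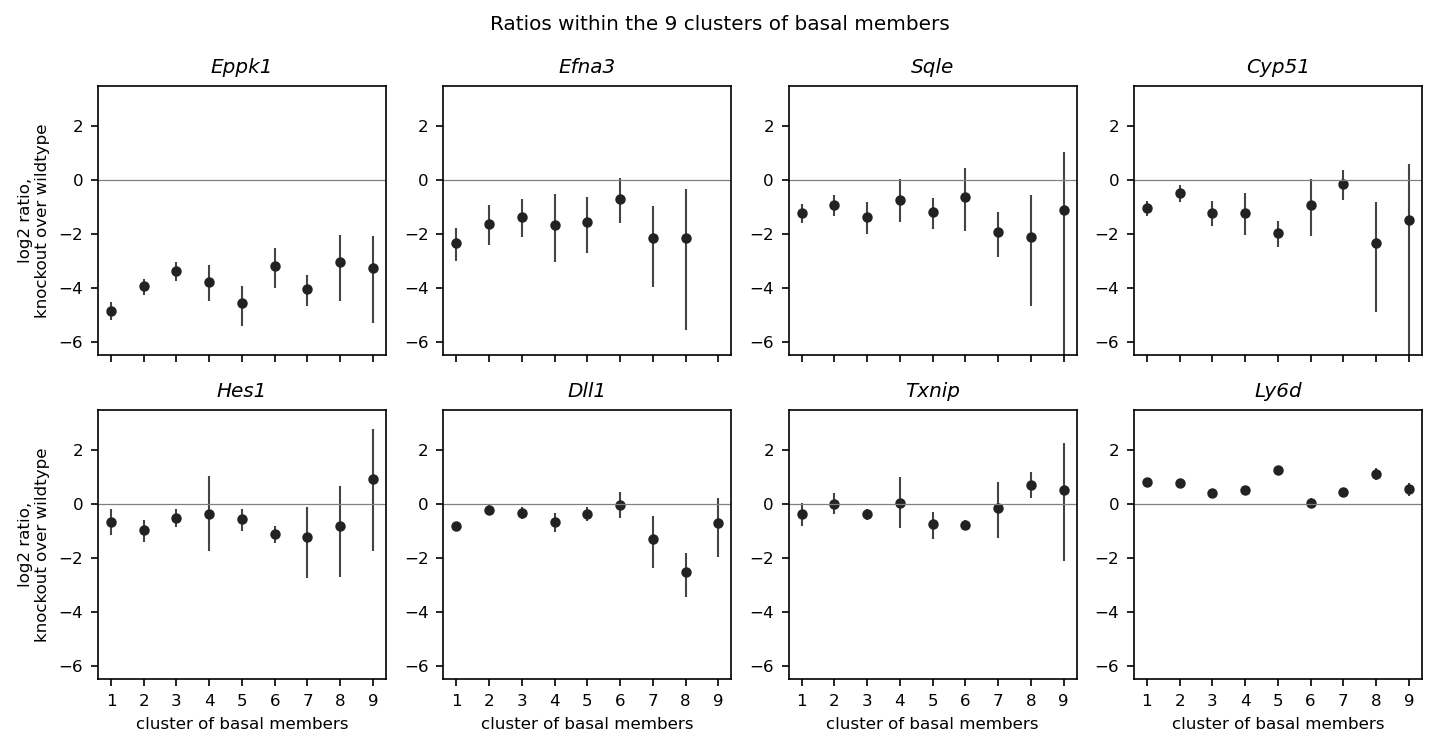
Log2 ratio of knockout over wildtype, with its exact 95% counting interval, in each of the 9 clusters of members for Eppk1, Efna3, Sqle, Cyp51, Hes1, Dll1, Txnip and Ly6d, leaving out clusters with under 10 UMIs of a gene and cutting intervals at the edge of the axis. Eppk1 lies between -4.84 and -3.05 in all clusters, and Ly6d between 0.05 and 1.26.

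Transcripts of other cell types were low in the members and partly differed between the libraries. The Langerhans and dendritic markers Cd207, Cd74, H2-Ab1 and H2-Aa summed to 202 CPM in wildtype and 461 CPM in knockout members, with all 4 higher, in 19.5% and 20.9% of members. Cd74 was at 101 and 227 CPM, a ratio of 1.16, which was 0.15 when cells with other cell types' markers were left out, where H2-Aa was at -0.04. Both genes are themselves among those markers, so cells were left out by their UMIs. The smaller ratios follow from that choice and cannot show where the UMIs came from. The markers of T and NK cells summed to 11.9 and 2.80 CPM, of melanocytes to 13.2 and 0.560 CPM, of myeloid cells to 85.6 and 81.0 CPM and of Merkel cells to 8.20 and 7.28 CPM, with Atoh1 at 0 in both libraries. Endothelial markers summed to 3.66 and 4.85 CPM. These sums were small beside the 25370 and 25940 CPM of the basal markers. Granular markers summed to 199 and 144 CPM and suprabasal markers to 842 and 761 CPM, beside the early differentiation genes described above. Their part in those ratios was not tested.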

How the data were processed

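Single-cell RNA of 1 wildtype and 1 Eppk1-/- mouse skin punch was profiled with 10x Flex probes. The deposited matrices hold raw UMI counts per gene and cell, which the authors made with Cell Ranger (version 8.0.1 per the labels) against mm10, with no normalization. A cell was kept if its UMIs lay between 200 and 45000, its genes between 100 and 7500, and no more than 10% of its UMIs were mitochondrial; mitochondrial genes were then dropped. UMIs were summed over members per library, because cells are not replicates. No test was run, and the call is a rule of size: a log2 ratio of 0.5 or more either way among genes detected in 25% or more of the members of a library. Ratio intervals are Clopper-Pearson intervals of the split of the UMIs and CPM intervals exact Poisson. Named genes were Eppk1, the 4 markers, the 10 highest and 10 lowest ratios, and the defining and extreme members of each list; any other name was picked with its values in view. The members, the 22 gene lists and the rules were chosen with earlier results of these data known.

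Clusters came from scanpy 1.11.5 (2000 variable genes, 30 principal components, 15 neighbours, Leiden resolution 0.5). The 13 alternatives for a ratio were a stricter and a looser choice of members, at least 1000 UMIs and 500 genes per cell, thinning to 2000 UMIs, the mean over cells of CPM, TMM scaling (edgeR 4.0.16, for scaling only), centring on the median, clusters weighted by wildtype shares, and leaving out shared droplet barcodes, the highest 5% of Scrublet scores, cells with 2 or more UMIs of other cell types' markers, clusters 6, 8 and 9, or, for each gene, its highest count in a cell of each library. The choice of the last 2 followed a look at the data. For the last, library totals were kept. Scrublet's own threshold marked 2 wildtype and 217 knockout cells, so doublets were treated only through its scores. The summing step was tested on simulated data with known ratios. Promoter sequences are from RefSeq, GRCm38.p6. A few genes of these lists are not reported here and were left out of the lists and their sums.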

Additional observations from a re-analysis of the deposited data

Results flagged for a closer look

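Il1r2, the decoy receptor for interleukin-1, differed in direction between cell classes of the same libraries. Its log2 ratio of knockout over wildtype was 0.52 in basal interfollicular keratinocytes and -0.52 in Krt1/Krt10 cells, and both counting intervals lay clear of 0. The difference between the cell classes was not tested, since each genotype has 1 library.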

How the results depend on the processing

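The size of the groups moved with the choice of members. Members were 10.2% of wildtype and 9.2% of knockout cells under the stricter choice, 21.4% and 17.5% under the looser one, and 16.2% and 13.5% without cells that held markers of other cell types. The number of genes higher by 0.5 or more was 14 and became 29 under the stricter choice, 54 with a UMI in at least 10% of members and 348 with no detection limit, and the number lower was 28 and became 92 and 450 under the last 2. Eppk1 stood at -3.98 under the looser choice of members. Of 161 genes with at least 50 UMIs that were checked, 28 turned in sign in at least 1 alternative, of which 20 were within 0.15 of 0 as reported. The other 5 under 0.5 were Cd207, which fell to -0.69, Sox9, to -0.23, Mvk, to -0.05, Fzd1, which reached 0.12, and Krt1, 0.01. Among those past 0.5 the signs of 3 turned. Lor was 0.20 under the looser choice and H2-Aa was -0.04 without cells with other cell types' markers. Pthlh was -0.06 without those cells and -0.28 without its highest count in a cell of each library. H2-Aa and Cd207, whose -0.69 also came without those cells, are among those markers. Leaving out those cells thus took out cells by their own UMIs. The causes were not tested. The median of the cholesterol synthesis list stayed between -0.70 and -0.47 in the 13 alternatives, and TMM scaling shifted all ratios by 0.001. No paired analysis was possible because each genotype has 1 library. Depth limits genes on few UMIs, whose intervals are wide, and no interval covers differences between mice.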
